A study of Mus musculus with 2 samples.

Results

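The genes described here handle iron, zinc and copper in mouse liver. They were taken from a list of 45 genes, and a gene was kept where the platform annotation gave it a probe set, a group of short probes for 1 transcript, that carried no other gene symbol. This kept 43 of the 45 genes, out of 18193 named genes in all. Hfe2 was found under its current symbol Hjv, while Trf (transferrin) and Ftl1 (ferritin light chain) had only probe sets shared with other symbols and were not analysed here. The 43 genes comprise 21 for zinc, 16 for iron and 6 for copper. One set of livers came from C57BL/6J mice, 2 months old, given Ad-PDK4, an adenovirus that carries pyruvate dehydrogenase kinase 4, and the others from mice of that strain and age given the empty vector, Ad-control. Both vectors were injected into the tail vein at 1000000000 plaque-forming units a mouse, and livers were taken on day 3. Livers of 3 mice (Ad-PDK4) and of 4 mice (Ad-control) were combined into 1 pool a group, and each pool was hybridised to 1 array, so that n = 1 a group. No spread between animals can be measured and no p-value is given. Both groups thus carried an adenovirus, and uninfected livers were not analysed here. The labels do not name the promoter that drives PDK4.

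Transition metals are needed by many enzymes and are toxic when free, so cells import, bind, store and export each of them through dedicated proteins. The liver senses body iron and answers with hepcidin, a peptide hormone encoded in mice by Hamp and its close copy Hamp2, which binds the iron exporter ferroportin and has it degraded. BMP6 from sinusoidal endothelial cells, with the hepatocyte co-receptor hemojuvelin, raises hepcidin transcription, and inflammatory cytokines raise it through STAT3. Zinc enters the cytosol through the Slc39 (ZIP) carriers, leaves it through the Slc30 (ZnT) carriers and is bound by metallothioneins, whose genes answer to zinc through the factor MTF-1. The liver takes up copper, loads it into ceruloplasmin and sends the excess into bile.

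The sequences shown first are promoter stretches of genes whose signals are described below as pairs or groups: the hepcidin genes, the acute phase ferrireductase Steap4 and the metallothioneins. They are from RefSeq (build GRCm38.p6), 5′ to 3′ on the strand of the gene, with positions counted from the transcript start of RefSeq (the last base before it is -1). Capitals mark matches to GGCGCC, the core of a BMP response element, and to TTCNNNGAA, a STAT motif, in the first 3 stretches, and to TGCACNC or TGCGCNC, the core of the metal response element, in the metallothionein genes.
Hamp, chr7:30944030-30944179, minus strand, -150 to -1: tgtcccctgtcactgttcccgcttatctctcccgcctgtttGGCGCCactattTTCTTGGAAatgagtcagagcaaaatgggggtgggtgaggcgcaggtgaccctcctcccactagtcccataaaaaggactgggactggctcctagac
Hamp2, chr7:30924182-30924331, minus strand, -150 to -1: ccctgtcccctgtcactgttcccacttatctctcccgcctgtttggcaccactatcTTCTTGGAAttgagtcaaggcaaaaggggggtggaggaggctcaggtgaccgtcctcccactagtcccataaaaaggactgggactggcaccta
Steap4, chr5:7960322-7960471, plus strand, -150 to -1: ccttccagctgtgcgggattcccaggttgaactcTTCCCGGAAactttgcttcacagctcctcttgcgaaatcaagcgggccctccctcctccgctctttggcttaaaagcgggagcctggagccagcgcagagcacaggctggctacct
Mt1, chr8:94179059-94179118, plus strand, -30 to 30: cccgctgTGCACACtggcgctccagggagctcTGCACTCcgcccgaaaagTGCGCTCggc
Mt2, chr8:94172388-94172617, plus strand, -230 to -1: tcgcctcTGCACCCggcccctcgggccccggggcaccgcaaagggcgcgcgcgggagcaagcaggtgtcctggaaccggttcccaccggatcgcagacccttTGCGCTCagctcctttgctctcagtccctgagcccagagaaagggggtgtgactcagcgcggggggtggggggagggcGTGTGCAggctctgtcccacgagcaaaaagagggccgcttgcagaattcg

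The motifs were searched on both strands of windows from 250 bases before to 50 bases after each start, and 36 of the 43 genes had at least 1 window (48 windows in all). The STAT motif was found for Hamp at -97 to -89, for Hamp2 at -94 to -86, for Steap4 at -116 to -108 and for Slc39a10, that is in 4 of the 48 windows, and lies in 8.30% of all 32851 windows. GGCGCC was found in 6 of the 48 windows, that of Hamp among them at -109 to -104, and lies in 11.9% of all windows. These letters are not in the Hamp2 window, although the 250 bases before the starts of Hamp and Hamp2 were identical at 227 of 247 aligned bases (91.9%). The metal response element core was found in 18 of the 48 windows (17 genes), against 25.7% of all windows. At least 3 matches lie in 1.97% of all windows, among them those of Mt1, Mt2 and the zinc exporters Slc30a4 and Slc30a10. Its letters on opposite strands can overlap, and each match is counted. A match describes the letters and does not show that a factor binds there.

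**Figure D1:**
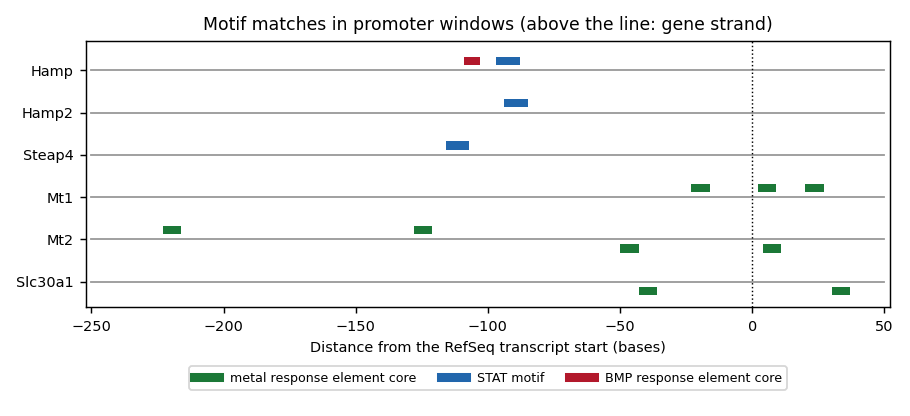
Matches to 3 motifs in the RefSeq promoter windows of 6 metal-handling genes. The horizontal axis is the distance in bases from the transcript start, blocks above a line lie on the strand of the gene and blocks below it on the other strand. The STAT block lies at -97 to -89 in Hamp and at -94 to -86 in Hamp2.

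Across the 2 arrays the metal-handling genes lay close to the other transcripts. Of the 43 genes, 6 were at least 1.5-fold higher in the Ad-PDK4 pool (Bmp6, Slc39a3, Tfrc, Slc39a13, Steap4 and Hjv), 1 was at least 1.5-fold lower (Atp7a) and 36 lay in between. That is 14.0% higher, where 11.0% of the 12121 named genes measured on at least 1 array passed the same fold, and 2.33% lower, where 5.58% did. Measured here means a signal above a floor, the median signal of an array (99.9 on the Ad-PDK4 array, 93.4 on the Ad-control array). Both shares are near the background and are no result about the group. On the log2 scale, the median of the differences (Ad-PDK4 minus Ad-control) was -0.059 over the 43 genes and 0.022 over all measured named genes. A difference of 0 is that of the median probe set. The only error scale at hand is how far different probe sets of a gene disagree, with a pooled SD of 0.35 on the log2 scale, which leaves out the variation between mice and between arrays.

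By metal, the iron and zinc genes past the fold lay upward and the only copper gene past it lay downward. Of the 16 iron genes, 4 passed 1.5-fold upward and 0 downward. Their median log2 difference was -0.082 and their range -0.53 to 1.24. Of the 21 zinc genes, 2 passed upward and 0 downward, and their median was -0.016. All 6 copper genes were below 0 by their brightest probe set, except that Cp lay at 0.058 after quantile normalization, with a median of -0.21, and 1 of them passed the fold. Of the 12121 named genes measured on at least 1 array, 11.0% passed the fold upward and 5.58% downward. These counts by metal, and those by smaller group below, are small and are no result about a metal or a group. Over all named genes above both floors, 48.4% were below 0. No test separates the 3 metals, since each group rests on the same 2 arrays.

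**Figure D2:**
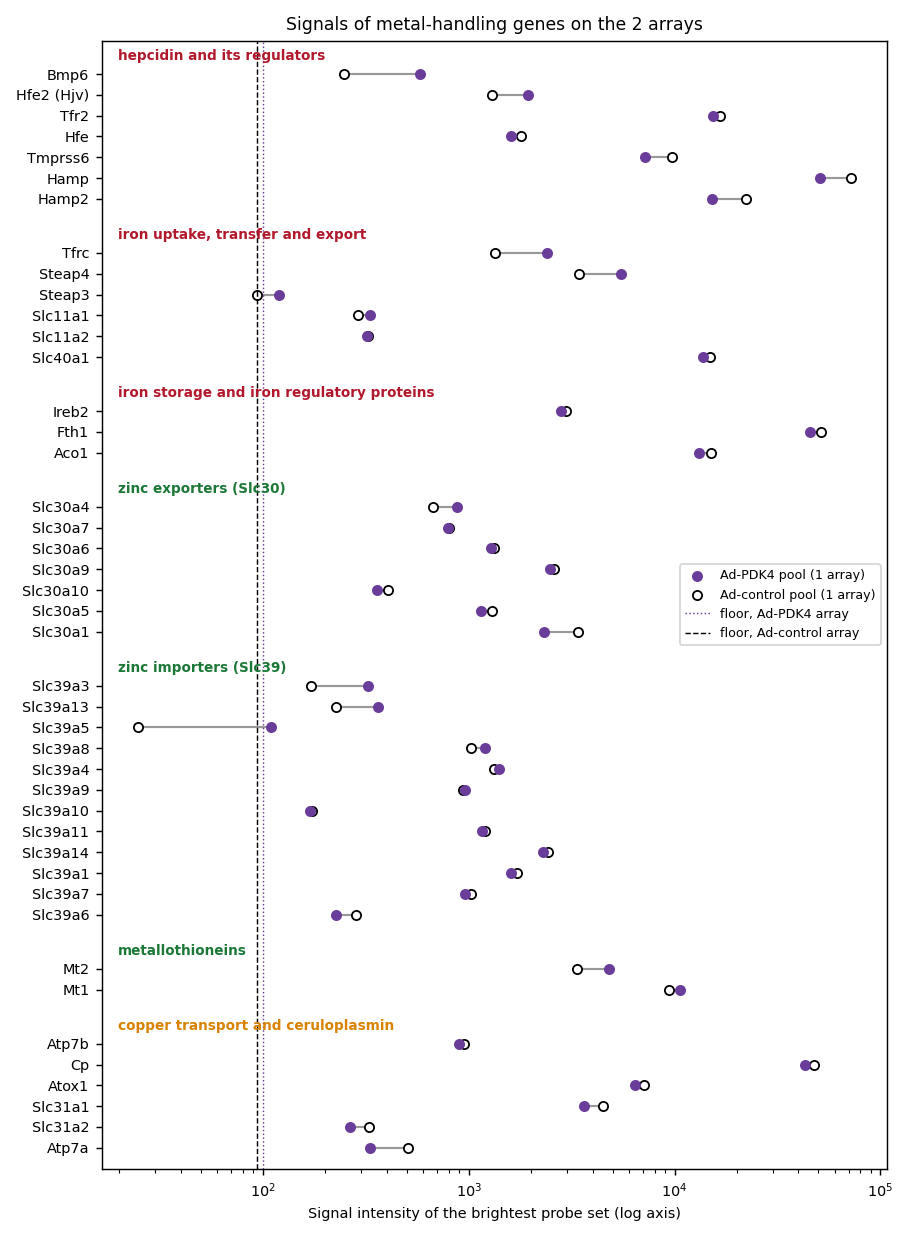
Signal intensity (log axis) of the brightest probe set of each of the 43 genes, with the Ad-PDK4 pool as filled and the Ad-control pool as open points, 1 array each. Vertical lines mark the floors. Bmp6 lay at 580 and 248, and Hamp at 51073 and 72079, on the Ad-PDK4 and Ad-control arrays.

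The pools passed the check for liver: Alb, albumin, had signals of 101771 on the Ad-PDK4 array and 97338 on the Ad-control array, and the 7 hepatocyte markers found lay within 1.5-fold. Pdk4 itself had a signal of 177 on the Ad-PDK4 array and 234 on the Ad-control array, a log2 difference of -0.39 on its only probe set, so that these arrays do not show overexpression of the gene. Whether this probe set can read the transcript of the vector was not tested. Directions below rest on the labels. Transcripts of other tissues and of dividing cells differed between the pools. All 6 pancreatic acinar markers found were higher in the Ad-PDK4 pool (summed signal 58409, against 7123 in the Ad-control pool), as were all 7 proliferation markers (17373, against 1467). Of 5 measured skeletal muscle markers, 4 were at least 1.5-fold lower (summed signal of the 6 found 1731, against 3193). The ratio of 3′ to 5′ signal of beta-actin, a measure of RNA integrity, was 5.46 on the Ad-PDK4 array and 4.88 on the Ad-control array. That of Gapdh was 0.81 on the Ad-PDK4 array and 0.78 on the Ad-control array.

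Hepcidin and the genes that set it did not lie on the same side of the array median. Bmp6, a BMP ligand, had the highest difference of all 43 genes, and Hjv, the co-receptor hemojuvelin, was also higher, while both hepcidin genes were lower. Bmp2, another BMP ligand and not one of the 43 genes, had 638 in the Ad-PDK4 pool and 854 in the Ad-control pool (-0.41). Of the 7 genes of the hepcidin group, 2 passed 1.5-fold upward, 0 downward, 2 lay above 0 and 5 below, with a median of -0.15. Over all measured named genes, 11.0% passed upward and 5.58% downward, and counts this small are no result about the group. Bmp6 had a signal of 580 in the Ad-PDK4 pool and 248 in the Ad-control pool. It was 2.36-fold higher (log2 difference 1.24), and ranked 147 from the highest among 10389 genes above both floors. It has 1 probe set and lies in the second of 5 brightness classes of equal size, where 13.2% of all genes passed 1.5-fold upward. Hjv gave 1951 in the Ad-PDK4 pool and 1295 in the Ad-control pool, 1.52-fold higher, just past the fold. Its other probe set gave nearly the same log2 difference, 0.60 beside 0.61. Hjv and Tfrc were the 2 of 11 metal-handling genes in the fourth class past the fold upward, where 4.52% of all genes passed it.

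Bmp6 in liver is made by sinusoidal endothelial cells. Of 8 markers of these cells, 1 was at least 1.5-fold higher (Pecam1, 0.71) and 1 lower (Cldn5, -0.76). Their summed signal was 9560 in the Ad-PDK4 pool and 10425 in the Ad-control pool. Stab2 (-0.046) and Clec4g (-0.087) were close to the array median. Lyve1 (0.36) and Stab1 (0.24) lay above it, and Kdr (-0.38) and Oit3 (-0.31) below. All 8 markers were above both floors. Fewer cells of a type and less RNA per cell cannot be told apart in pooled tissue.

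Both hepcidin genes were lower in the Ad-PDK4 pool by less than 1.5-fold, with the median probe set as 0. With the spike-in poly-A control RNAs as 0 instead, Hamp was at 0.060 and Hamp2 at 0.012, so that their side depends on this choice. Loess centring gave -0.36 for Hamp and quantile normalization -0.32. Both genes lie in the brightest of the 5 classes, whose median over all genes was -0.058. Hamp had a signal of 51073 in the Ad-PDK4 pool and 72079 in the Ad-control pool, a log2 difference of -0.48, or 1.40-fold lower. Its other probe set, whose probes can match more than 1 transcript, gave 42857 and 58760, a log2 difference of -0.44. Hamp2 had 15218 in the Ad-PDK4 pool and 22201 in the Ad-control pool, or 1.44-fold lower (-0.53). That probe set, too, can match more than 1 transcript. The other Hamp2 probe set was under both floors, with signals of 27.9 and 39.6. Whether the Hamp2 value holds signal of Hamp was not tested.

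The brakes and sensors of the pathway were lower by less than 1.5-fold, but Tfr2 was at 0.036 after quantile normalization. With the spike-in control RNAs as 0, Tmprss6 was at 0.11, Hfe at 0.39 and Tfr2 at 0.45. Tmprss6, the membrane protease that cleaves hemojuvelin and so limits hepcidin, had a signal of 7157 in the Ad-PDK4 pool and 9755 in the Ad-control pool (-0.43). Hfe, the hemochromatosis protein, had 1598 in the Ad-PDK4 pool and 1795 in the Ad-control pool (-0.15; -0.12 on its other probe set). Tfr2, the sensor of iron-loaded transferrin, had 15376 in the Ad-PDK4 pool and 16565 in the Ad-control pool (-0.093, with -0.28 on the other).

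By their brightest probe set, most further genes of the hepcidin pathway lay below the array median. Of 15 such genes of BMP and STAT3 signalling and hepcidin processing, 3 were above 0 and 12 below, with a median of -0.24. Over all named genes above both floors, 48.4% were below 0. The 15 genes share the same 2 arrays, and several have probe sets on both sides of 0, so this count is no result about the pathway. The only one of the 15 past 1.5-fold was Smad6, an inhibitory SMAD, with a signal of 302 in the Ad-PDK4 pool and 521 in the Ad-control pool (-0.77). The type I receptor genes Bmpr1a (-0.56) and Acvr1 (-0.57) and the type II receptor gene Bmpr2 (-0.55) came next, but each has another probe set above 0 (0.60, 0.43 and 0.40), so that their direction is not settled. Of BMP targets, Id1 (-0.17) and Smad7 (0.15, with -0.47 on another probe set) lay within 1.5-fold, while Smad6, a BMP target as well, did not. Smad1 (-0.24, with probe sets from -0.84 to -0.20) and Smad4 (-0.36, with probe sets up to -0.076) were below 0 on every measured probe set. Stat3 was at 0.093 and Furin, a protease that processes prohepcidin, at 0.027.

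**Figure D3:**
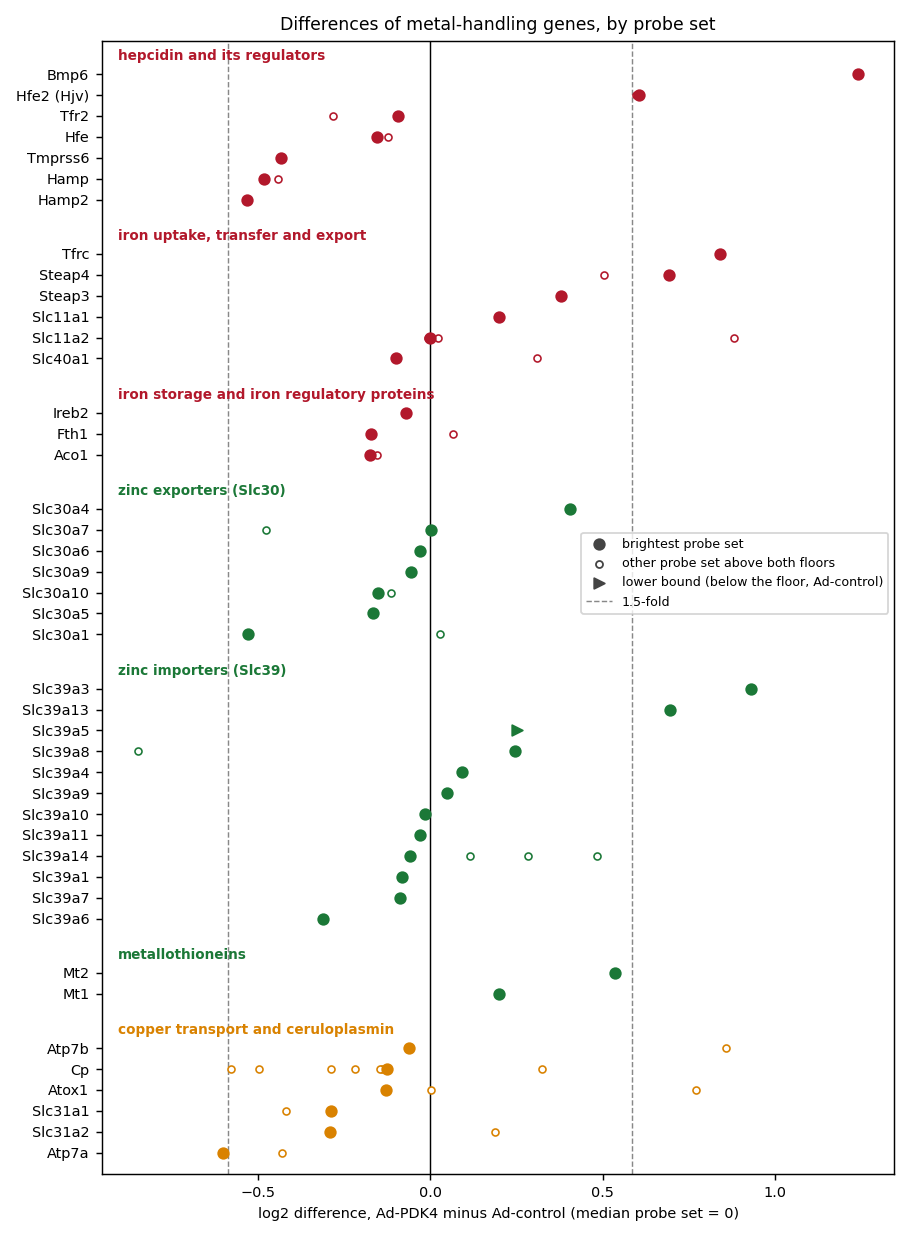
Log2 difference, Ad-PDK4 minus Ad-control, of each gene by its brightest probe set (filled) and by other probe sets above both floors (open); dashed lines mark 1.5-fold and the triangle is a lower bound. Bmp6 stands highest at 1.24, and all 6 copper genes have their filled point left of 0 (after quantile normalization Cp lay at 0.058).

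Among the genes of iron uptake, Tfrc and Steap4 were higher, while the carrier Slc11a2, the exporter and the storage genes were near the array median. Of the 6 genes of uptake, transfer and export, 2 passed 1.5-fold upward and 0 downward, and the median was 0.29. The shares over all measured named genes were 11.0% and 5.58%, and counts this small are no result about the group. Tfrc, the transferrin receptor that imports iron into dividing and iron-poor cells, had a signal of 2390 in the Ad-PDK4 pool and 1348 in the Ad-control pool, 1.79-fold higher (0.84). A second probe set of Tfrc was above the floor in the Ad-PDK4 pool alone (386, against 91.0), with a log2 difference of at least 2.06. The last one was below both floors. The proliferation markers given above differed in the same direction. The erythroid markers did not: of 5 found, 2 were measured, both were below 0 (Alas2, -0.43, and Klf1, -0.24), and their summed signal was 1851 in the Ad-PDK4 pool and 2348 in the Ad-control pool. Neither list's part in the Tfrc difference was tested.

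The ferrireductases turn ferric into ferrous iron for transport. Steap4 had a signal of 5521 in the Ad-PDK4 pool and 3452 in the Ad-control pool, 1.62-fold higher (0.69), and its other probe set gave 1419 and 1011 (0.50). It was 1 of 17 metal-handling genes in the brightest class, and no other of them passed 1.5-fold upward, where 2.89% of all genes did. Steap3, the reductase of the transferrin cycle, lay just above the floors, with 120.5 in the Ad-PDK4 pool and 93.6 in the Ad-control pool (0.38). Steap4 also answers to inflammation. Of 8 acute phase markers, 4 passed 1.5-fold upward (Saa1, Saa2, Orm2 and Lcn2) and 0 downward. Their median was 0.32, while their summed signal, which the brightest genes dominate, was 167554 in the Ad-PDK4 pool and 179560 in the Ad-control pool. Their part in the Steap4 difference was not tested.

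Slc40a1, ferroportin, the cellular iron exporter, had 13715 in the Ad-PDK4 pool and 14852 in the Ad-control pool (-0.100), and its other probe set went the other way (0.31). Slc11a2, the ferrous iron carrier DMT1, had 320 in the Ad-PDK4 pool and 324 in the Ad-control pool (-0.0020). Of its 4 probe sets the highest gave 0.88. Slc11a1, the metal carrier of the macrophage phagosome, had 330 in the Ad-PDK4 pool and 290 in the Ad-control pool (0.20). Of 7 measured Kupffer cell and macrophage markers, 0 were 1.5-fold higher and 2 were lower (Vsig4, -1.19, and Clec4f, -1.13). Above both floors, 3 lay above 0 (Cd68, 0.37, Adgre1, 0.21, and Cd5l, 0.10) and 3 below. The summed signal of the 8 found was 7857 in the Ad-PDK4 pool and 8573 in the Ad-control pool. Of 5 measured neutrophil markers, 3 were at least 1.5-fold higher (S100a8, S100a9 and Ngp). Elane was at -0.22, and Mpo was above the floor in the Ad-control pool alone. The summed signal of the 6 found was 999.7 in the Ad-PDK4 pool and 786 in the Ad-control pool. The part of these cells in the Slc11a1 value was not tested.

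Iron storage showed little difference. Fth1, the ferritin heavy chain, had 45382 in the Ad-PDK4 pool and 51666 in the Ad-control pool (-0.17), and its other probe set gave 0.066. Aco1, iron regulatory protein 1, which is a cytosolic aconitase when it holds an iron-sulfur cluster, had 13150 in the Ad-PDK4 pool and 14986 in the Ad-control pool (-0.17). Ireb2, iron regulatory protein 2, had 2801 in the Ad-PDK4 pool and 2973 in the Ad-control pool (-0.072). These proteins act on ferritin and transferrin receptor mRNA after transcription, which arrays see only as a level of mRNA.

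Of 18 further iron genes found, 15 were measured, with 2 at least 1.5-fold higher, 1 lower and a median of 0.013. Slc25a37, mitoferrin 1, which brings iron into mitochondria, had a signal of 1149 in the Ad-PDK4 pool and 1949 in the Ad-control pool (-0.75). Steap1, a relative of Steap4, had 227 in the Ad-PDK4 pool and was below the floor in the Ad-control pool, at least 2.46-fold higher. The other was the siderophore-binding Lcn2 (1.66). Ncoa4, the receptor for ferritin breakdown (-0.14), Fbxl5, which targets iron regulatory protein 2 for degradation (0.23), and the iron chaperones Pcbp1 (0.12) and Pcbp2 (0.19) lay within 1.5-fold.

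Zinc exporters were near the array median. None (0) of the 7 Slc30 genes passed 1.5-fold, 2 lay above 0 and 5 below, and the median was -0.057. Slc30a1, which exports zinc across the plasma membrane and answers to MTF-1 as metallothioneins do, had a signal of 2328 in the Ad-PDK4 pool and 3392 in the Ad-control pool (-0.53), but its other probe set gave 0.030 (610 and 604). Slc30a4, a vesicular carrier, had 880 in the Ad-PDK4 pool and 672 in the Ad-control pool (0.40). The carriers of the early secretory pathway, Slc30a5 (-0.16), Slc30a6 (-0.030) and Slc30a7 (0.00088; -0.48 on its other probe set), the mitochondrial carrier Slc30a9 (-0.057) and Slc30a10 (-0.15), which exports manganese, lay between.

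Of the 12 zinc importers, 2 passed 1.5-fold upward and 0 downward, where 11.0% and 5.58% of all measured named genes did. Their median was 0.016. Slc39a3, a plasma membrane importer, had a signal of 325 in the Ad-PDK4 pool and 172 in the Ad-control pool, 1.91-fold higher (0.93). Its second probe set pointed the other way, with 81.5 in the Ad-PDK4 pool, below the floor, and 129.0 in the Ad-control pool, so that its direction is not settled. Slc39a13, an importer from vesicles of the secretory pathway, had 362 in the Ad-PDK4 pool and 226 in the Ad-control pool, 1.62-fold higher (0.70), on its only probe set. With the floor at the 70th percentile both had only a bound, log2 differences of at least 0.22 and 0.38, short of 1.5-fold. In the dimmest of 5 brightness classes, which holds Slc39a3, 17.5% of all genes passed 1.5-fold upward, and in the next, which holds Slc39a13, 13.2% did.

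Slc39a14, the carrier through which hepatocytes take up iron not bound to transferrin as well as zinc and manganese, had 2298 in the Ad-PDK4 pool and 2417 in the Ad-control pool (-0.059), and its 4 probe sets ranged up to 0.48. Slc39a8, its close relative, had 1201 in the Ad-PDK4 pool and 1024 in the Ad-control pool (0.25), against -0.85 on a dimmer probe set. Slc39a4, the importer of dietary zinc in the intestine, had 1400 in the Ad-PDK4 pool and 1328 in the Ad-control pool (0.091). Slc39a5, which is also made by the pancreas, was above the floor in the Ad-PDK4 pool alone, with signals of 110.0 and 24.7, at least 1.19-fold higher. Against the lower floor of the 30th percentile the bound was a log2 difference of 1.62, past the fold. The pancreatic acinar markers were higher in that pool, as given above, and their part in the Slc39a5 signal was not tested. The other 6 importers lay between -0.31 (Slc39a6) and 0.049 (Slc39a9, of the Golgi). Slc39a7, which releases zinc from the endoplasmic reticulum, was at -0.087, Slc39a1, of the plasma membrane, at -0.081, Slc39a11 at -0.031 and Slc39a10 at -0.016.

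Both metallothionein genes were higher in the Ad-PDK4 pool by less than 1.5-fold. Mt2 had a signal of 4815 in the Ad-PDK4 pool and 3356 in the Ad-control pool, 1.45-fold higher (0.54). Mt1 had 10682 in the Ad-PDK4 pool and 9403 in the Ad-control pool, 1.15-fold higher (0.20). The other Mt1 probe set, which is dim, was above the floor in the Ad-PDK4 pool alone (211, against 62.4), with a log2 difference of at least 1.19. These are the genes whose metal response element cores are shown above. Slc30a1, which has 2 matches of the same core in its window, was at -0.53 on its brightest probe set and at 0.030 on its other. Slc30a4 (0.40) and Slc30a10 (-0.15), with at least 3 matches each, lay on different sides of 0. A link between the core and these differences was not tested. Mtf1, the zinc-sensing factor, had 644 in the Ad-PDK4 pool and 519 in the Ad-control pool (0.33, with probe sets from -0.18 to 0.59). Of 8 further zinc genes, 6 were below the floor on both arrays and 0 of the other 2 passed 1.5-fold.

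Copper genes were lower by their brightest probe set, by little, but Cp was at 0.058 after quantile normalization and Atp7b (0.40) and Atox1 (0.0021) were above 0 by the median over probe sets. Atp7a, the copper pump of most tissues other than liver, had a signal of 332 in the Ad-PDK4 pool and 509 in the Ad-control pool, 1.51-fold lower (-0.60), just past the fold. Its other probe set gave -0.43. The gene fell short of the fold as the median of its probe sets (-0.51), and also once the floor was raised to the 70th percentile (-0.58). In its brightness class 6.98% of all genes passed 1.5-fold downward. Atp7b, the pump of hepatocytes that loads ceruloplasmin and is mutated in Wilson disease, had 903 in the Ad-PDK4 pool and 951 in the Ad-control pool (-0.061), but a dimmer probe set gave 0.86. Slc31a1, the copper importer CTR1, had 3636 in the Ad-PDK4 pool and 4479 in the Ad-control pool (-0.29), and its other probe set gave -0.42. Slc31a2, its endosomal relative, had 266 in the Ad-PDK4 pool and 328 in the Ad-control pool (-0.29), with 0.19 on the other. Atox1, the chaperone that hands copper to these pumps, had 6403 in the Ad-PDK4 pool and 7072 in the Ad-control pool (-0.13), and its 3 probe sets ranged up to 0.77.

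Cp, ceruloplasmin, the copper-binding ferroxidase of plasma, was read by 8 probe sets above both floors. The brightest had a signal of 43037 in the Ad-PDK4 pool and 47411 in the Ad-control pool (-0.13). The 8 ranged from -0.58 to 0.32. Ceruloplasmin is also an acute phase protein. Of the 8 acute phase markers 4 were above 0, as given with Steap4, and 4 below (Orm1, -0.27, Crp, -0.40, Fgg, -0.10, and Hp, -0.078). Of 8 further copper genes, Mtf1 again included, 4 were above 0 and 4 below, with a median of -0.014. The only one past 1.5-fold was Sco1, which delivers copper to cytochrome c oxidase, with a signal of 118.0 in the Ad-PDK4 pool and 257 in the Ad-control pool (-1.11). The chaperones Ccs (-0.11) and Cox17 (0.26) and the copper enzyme Sod1 (-0.31) lay within 1.5-fold.

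**Figure D4:**
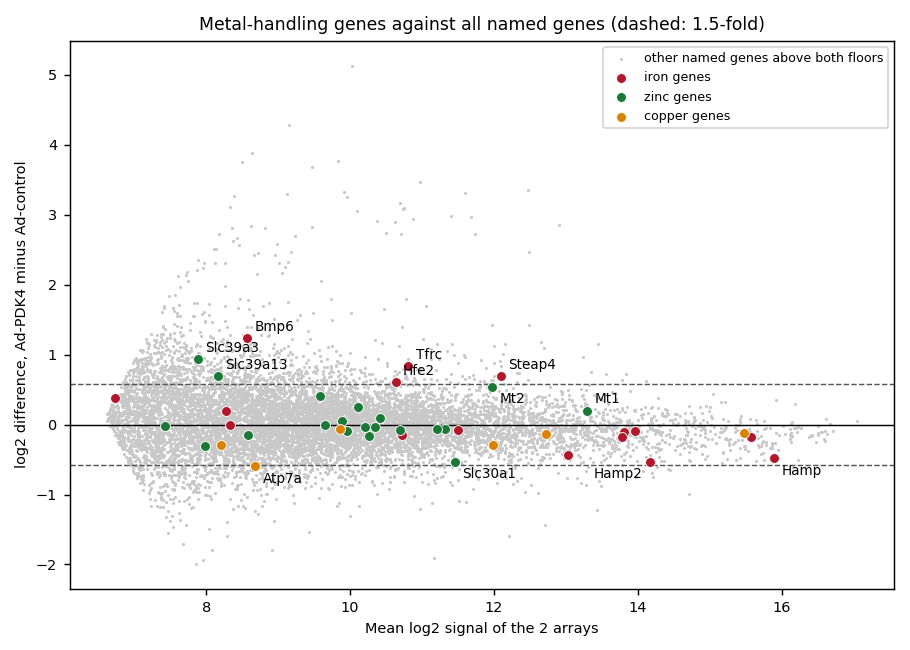
Log2 difference, Ad-PDK4 minus Ad-control, against the mean log2 signal of the 2 arrays, with iron, zinc and copper genes coloured over the other named genes above both floors (grey). Tfrc, Hjv (labelled Hfe2) and Steap4 passed 1.5-fold at higher signals, where the grey cloud is narrower, and Bmp6, Slc39a3, Slc39a13 and Atp7a at lower ones.

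Probe sets of a gene often disagreed in sign. Of 20 genes with more than 1 probe set above both floors, 9 had all of them on the same side of 0. The share over all 4326 such named genes was 49.4%. Among the 6 genes past 1.5-fold upward, Hjv and Steap4 had a second probe set above both floors, and it agreed in sign. Tfrc had one with a bound in the same direction, Slc39a3 had one that opposed, and Bmp6 and Slc39a13 had none. Of the 73 probe sets of the group above both floors, 30 lay above 0 and 43 below, 10 passed 1.5-fold upward and 2 downward. The shares over all 17490 such named probe sets were not worked out, so these counts are no result about the group.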

How the data were processed

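The deposited table holds 1 linear signal intensity per probe set for 45101 probe sets on each of 2 arrays; per the labels, biotin-labelled cRNA was made from 10 ug of each pool by the Affymetrix procedure. No label or header names the authors' summary method or software. The mean without the outer 2% of probe sets is the same on both arrays, so each array is scaled to a common average. Gene names came from the platform annotation, 1 symbol a probe set; older symbols were matched through RefSeq synonyms. Control probe sets (64) were set aside. The difference of log2 intensity values was centred on its median over 20151 probe sets at or above both floors (shift -0.015). Each gene was represented by its brightest probe set. Under the floor on 1 array, the floor replaced the signal and the difference is a bound. The calculations were tested on simulated data. All genes of the list are reported; further pathway genes are named where at least 1.5-fold apart or as examples chosen after their values were seen. The members and lists were chosen with earlier results of these data known. The number of arrays limits the precision. Alternatives were other floors, centrings, normalization and probe set rules. Python 3.11.15 with numpy 2.4.6, pandas 2.3.3 and statsmodels 0.14.6 was used.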

Additional observations from a re-analysis of the deposited data

Results flagged for a closer look

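The array carries 3 control probe sets for Tfrc, which were outside the comparison. The one at the 3′ end was above both floors, with a signal of 242.1 in the Ad-PDK4 pool and 136.7 in the Ad-control pool, a log2 difference of 0.84, the same to 2 decimals as the brightest probe set of Tfrc. The middle and 5′ control probe sets were below both floors, with 81.9 and 82.0 in the Ad-PDK4 pool and 15.7 and 73.4 in the Ad-control pool.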

How the results depend on the processing

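No paired analysis was possible because each group is 1 pool on 1 array. Raising the floor to the 70th percentile left 4 genes of the list and 540 of all named genes at least 1.5-fold higher, and 0 and 276 lower. Lowered to the 30th percentile, it left 2714 of all named genes higher and 1707 lower. The number of genes measured changes with the floor, so these counts cannot be read as shares. With the median over probe sets 0 genes of the list were lower. Once _x_at and _s_at probe sets (open to cross-matching) were left out, the metallothionein median was 0.86, since Mt1 then rests on its dim probe set. The choice of zero matters most: the spike-in poly-A RNAs, added in amounts that no label states, had a median of -0.54. The hybridization control probe sets, which were not tried as a zero, had a median of -0.26. With the poly-A RNAs at 0 the median of all named genes became 0.56. Of the 43 genes of the list, 15 were then higher and 0 lower, and of the 12121 measured named genes 5803 were higher and 58 lower. Medians then were 0.53 for zinc, 0.46 for iron, 0.33 for copper, 0.49 for zinc exporters, 0.56 for zinc importers, 0.91 for metallothioneins, 0.39 for hepcidin and its regulators, 0.83 for iron uptake, transfer and export, and 0.37 for iron storage. Of single genes, Slc39a3 had only a bound of 0.22 above the 70th percentile, and Slc39a5 a bound of 1.62 above the 30th, the seventh gene past the fold there. With the median over probe sets Slc39a8 (-0.30), Atp7b (0.40), Slc39a14 (0.20), Slc40a1 (0.11), Slc30a7 (-0.24), Slc11a2 (0.0098) and Atox1 (0.0021) changed side, the last also without _x_at and _s_at probe sets. With quantile normalization Cp (0.058), Tfr2 (0.036), Slc30a6 (0.0028) and Slc30a7 (-0.0055) did. Over the settings other than the spike-in zero, Bmp6 stayed between 1.06 and 1.24, where 1.06 is a lower bound with the floor at the 70th percentile. Over the same settings Tfrc stayed between 0.83 and 0.87, Steap4 between 0.60 and 0.73, and Hjv (Hfe2) between 0.59 and 0.63. Hamp stayed between -0.50 and -0.32 there, but with the spike-in zero Hamp was at 0.060 and Hamp2 at 0.012. With no replicates, what separates mice or arrays was not tested.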
